A study of Mus musculus with 14 samples.

Results

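The regions described here held a Sin3B peak in myotubes and no peak for Sin3B in myoblasts or for Sin3A at either stage. They were found by joining peaks that overlapped by at least 1 bp over the 4 distinct peak lists of the study and by keeping the joined regions with a peak of the myotube Sin3B list alone. There were 1953 such regions among 5137 regions in all (38.0%, 95% exact binomial interval 36.7 to 39.4%), and they made up 52.4% (50.8 to 54.0%) of the 3729 regions with a Sin3B myotube peak. Members were chosen by presence and absence of peaks in the lists, so these numbers are a description without a test. Binding had been mapped by chromatin immunoprecipitation and sequencing on the Illumina Genome Analyzer in C2C12, an established mouse muscle cell line of the C3H background. The tested samples were 5 Sin3B precipitations from myotubes, which form when confluent cells are moved to 2% horse serum and which diluted trypsin had freed of cells that did not differentiate. They were set against 2 Sin3A precipitations from myotubes, and against 2 Sin3B and 2 Sin3A precipitations from growing myoblasts in 10% fetal bovine serum. There were also 3 input samples, which were not analysed here.

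The deposited lists give chromosome, start and end of each peak and nothing else, and the files within a group were byte-identical. Each group was therefore 1 list, with 3769 Sin3B and 759 Sin3A peaks in myotubes, against 2387 Sin3B and 691 Sin3A peaks in myoblasts. With 1 list per group there is no spread between cultures: every test below takes regions as units and compares lists, not cultures. Read depth is unknown, and intervals cover counting error only. A region counted as lacking a peak in the other lists is one where none was listed, which without reads or scores cannot be told apart from a weaker signal, a shallower library or a stricter threshold. Both antibodies carry 1 catalogue number in the labels. The part of that shared number in the lack of Sin3A peaks was not tested.

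Sin3B is a scaffold protein with paired amphipathic helices that holds histone deacetylases and other subunits together and is brought to DNA by sequence-specific factors. Sin3 complexes are known as corepressors that act at promoters, in muscle cells at genes silenced as cells leave the cell cycle and at genes of the contractile apparatus. Peaks of such complexes usually lie close to transcription start sites, where the deacetylases act on nucleosomes beside the promoter.

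No source used here gives the genome build of the lists, and the gene starts at hand belong to GRCm38.p6. Region and start positions coincided only on 6 stretches that run from the beginning of a chromosome, on chromosomes 16, 19, 8, 5, 13 and 12. These stretches spanned 139.8 Mb and held 250 regions, among them 103 members (5.27% of all members). Within them 80% of regions of any class lay within 1 kb of a gene start, against 4.34% of the 4766 regions outside; 121 regions on a chromosome without entries in the promoter table were left out. The longest stretch covered chromosome 16 up to position 92302056 and held 141 regions. Gene names are given only there, no coordinate was converted, and outside the stretches members are named by position in the files' own build, counted from 1. Because nearness to starts was itself used to draw the stretches, the level of 80% is raised by construction for every class.

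The promoters nearest to the 6 widest members among those at gene starts are shown, since the motif content of such promoters is compared further on. Each is RefSeq sequence on GRCm38.p6 from 250 bases before to 50 bases after the start, read 5′ to 3′ on the gene's strand. Capitals mark GC boxes (GGGCGG) and CCAAT boxes (CCAAT), found on either strand, so that CCGCCC and ATTGG are the same words on the other strand.
Cdip1, chr16:4789413-4789712, minus strand: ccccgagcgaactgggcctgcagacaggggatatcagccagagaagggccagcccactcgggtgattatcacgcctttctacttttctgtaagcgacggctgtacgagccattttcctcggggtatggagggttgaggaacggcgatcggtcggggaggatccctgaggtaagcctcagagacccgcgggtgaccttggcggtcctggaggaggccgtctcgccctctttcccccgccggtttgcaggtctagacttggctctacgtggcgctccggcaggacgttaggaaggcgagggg
Ubn1, chr16:5049807-5050106, plus strand: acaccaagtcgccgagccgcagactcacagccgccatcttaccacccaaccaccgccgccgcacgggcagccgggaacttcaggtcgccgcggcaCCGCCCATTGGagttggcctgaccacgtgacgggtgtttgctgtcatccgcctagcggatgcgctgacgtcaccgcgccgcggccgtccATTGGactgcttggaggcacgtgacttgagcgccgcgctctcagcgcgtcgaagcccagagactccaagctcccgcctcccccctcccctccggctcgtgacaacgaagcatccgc
Abcf3, chr16:20548353-20548652, plus strand: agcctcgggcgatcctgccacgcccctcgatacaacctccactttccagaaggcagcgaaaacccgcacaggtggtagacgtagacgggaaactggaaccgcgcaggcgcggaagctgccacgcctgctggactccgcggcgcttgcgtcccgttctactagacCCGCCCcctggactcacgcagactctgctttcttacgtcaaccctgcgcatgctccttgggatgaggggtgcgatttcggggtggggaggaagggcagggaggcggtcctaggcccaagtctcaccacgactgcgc
Eaf2, chr16:36874777-36875076, minus strand: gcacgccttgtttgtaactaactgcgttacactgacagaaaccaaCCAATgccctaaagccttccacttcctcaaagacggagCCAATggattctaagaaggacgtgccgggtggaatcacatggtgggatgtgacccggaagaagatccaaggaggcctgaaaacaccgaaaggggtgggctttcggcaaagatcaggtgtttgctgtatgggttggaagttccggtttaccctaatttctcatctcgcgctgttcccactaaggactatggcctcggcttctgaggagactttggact
Atp5j, chr16:84835576-84835875, minus strand: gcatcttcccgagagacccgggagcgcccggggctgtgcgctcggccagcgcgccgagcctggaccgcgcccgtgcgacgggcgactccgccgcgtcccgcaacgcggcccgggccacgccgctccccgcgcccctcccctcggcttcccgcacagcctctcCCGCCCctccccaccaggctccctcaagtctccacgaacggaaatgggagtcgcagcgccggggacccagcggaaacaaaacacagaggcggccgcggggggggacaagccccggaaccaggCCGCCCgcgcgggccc
Qtrt2, chr16:43889627-43889926, minus strand: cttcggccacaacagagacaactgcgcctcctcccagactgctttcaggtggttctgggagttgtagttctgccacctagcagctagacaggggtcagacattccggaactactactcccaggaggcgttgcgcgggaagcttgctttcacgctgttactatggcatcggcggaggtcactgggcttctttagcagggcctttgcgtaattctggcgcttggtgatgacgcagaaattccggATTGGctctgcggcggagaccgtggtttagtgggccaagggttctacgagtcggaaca
The Cdip1 promoter held neither word, the Abcf3 and Atp5j promoters held GC boxes alone, the Eaf2 and Qtrt2 promoters held CCAAT boxes alone, and the Ubn1 promoter held both, with a GC box and a CCAAT box side by side. Cdip1 encodes a pro-apoptotic membrane protein and had a member of 1056 bp, whose middle lay 15.5 bp upstream of the start. Ubn1, a subunit of the HIRA histone chaperone, had a member of 1049 bp. The members at the other 4 were 955 bp at Abcf3, an ATP-binding cassette protein without membrane spans, 932 bp at Eaf2, which encodes a partner of the elongation factor ELL, 891 bp at Atp5j and 880 bp at Qtrt2, a subunit of the tRNA-guanine transglycosylase.

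Members were narrower than the rest of the list they come from. Each was a single peak, by construction, and their widths had a median of 494 bp (quartiles 393 and 621 bp, range 9 to 2102 bp). The 1776 other regions with a Sin3B myotube peak had a median of 619 bp (quartiles 466.75 and 814 bp) for the widest such peak. The 1000 regions with Sin3B at both stages and no Sin3A had a median of 583 bp, and the 880 regions with Sin3B in myoblasts alone 442.5 bp. Peaks over 1000 bp were 64 among members (3.28%), against 217 (12.2%) among the other myotube Sin3B regions. A peak was called wide at 545 bp or more, the median of the myotube Sin3B list.

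By this measure 768 of 1953 members (39.3%, 37.1 to 41.5%) were wide, against 1110 of 1776 other myotube Sin3B regions (62.5%). The difference was -23.2 percentage points (95% interval -26.3 to -20.0; two-sided Fisher's exact test, adjusted p = 3.10e-45 over 3 comparisons). Against the 1000 regions kept from myoblasts without Sin3A, of which 567 (56.7%) were wide, the difference was -17.4 points (-21.1 to -13.6, Fisher's exact test, adjusted p = 4.46e-19). Members were wide more often than the 880 regions with Sin3B in myoblasts alone, of which 241 (27.4%) were wide, by 11.9 points (8.22 to 15.5, Fisher's exact test, adjusted p = 5.66e-10). The last comparison sets peaks of different lists side by side, so it also holds any difference between the lists in depth or threshold. Regions that had both Sin3 proteins in myotubes and neither in myoblasts held 163 wide peaks among 273 (59.7%).

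The share of members went down with width within the single myotube Sin3B list. Members were 628 of 939 regions (66.9%, 63.8 to 69.9%) in the narrowest of 4 near-equal width groups, from 6 to 418 bp, 60.6% at 419 to 547 bp, 50.9% at 548 to 715 bp and 289 of 931 (31.0%, 28.1 to 34.1%) in the widest group, from 716 to 2157 bp. A wide peak has more bases with which to meet another list's peak, so width and the rule are not fully independent. The part of this in the difference was not tested. The bases that the 1776 other regions shared with another list had a median of 435 bp, a length that peak width itself bounds, and 34 of them (1.91%) shared under 50 bp.

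**Figure D1:**
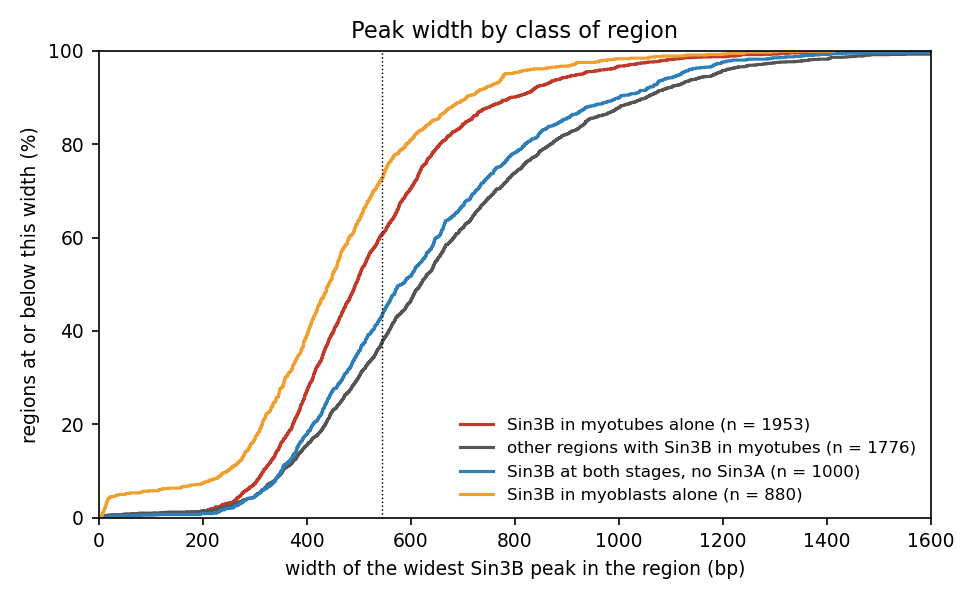
Cumulative share of regions (y axis, percent) by peak width (x axis, bp) for members, other regions with Sin3B in myotubes, Sin3B at both stages with no Sin3A, and Sin3B in myoblasts alone. The width is that of the widest myotube Sin3B peak, or of the myoblast one for Sin3B in myoblasts alone. The dotted line is the 545 bp width called wide. The curve of members, median 494 bp, runs left of the other myotube Sin3B regions, median 619 bp, and right of Sin3B in myoblasts alone, median 442.5 bp.

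The 20 widest members measured 1230 to 2102 bp. A pair of them were neighbours, at chr15:96117725-96119493 (1769 bp) and chr15:96115594-96117309 (1716 bp), 415 bp apart and over 300 kb from any peak of another list (349337 and 351521 bp). Among the 20, a single member lay in a matched stretch, chr19:5799483-5800773 (1291 bp), inside Malat1, an abundant nuclear long noncoding RNA. Beside it, across a gap of 162 bp, lay a further member of 1021 bp at chr19:5800936-5801956, also inside Malat1. Their middles were 2544 and 1226 bp downstream of the start of that gene, and the first was 327 bp from the nearest peak of another list.

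At the edge of the rule, the members closest to a peak of another list were chr2:151320212-151320354 with a gap of 2 bp, a region of chromosome 18 with 6 bp, chr15:88693076-88693488 with 8 bp, chr2:164736382-164737133 with 11 bp and chr17:35378667-35379898 with 14 bp. The regions that just failed were chr6:120544628-120544635 and chr9:63978908-63978987 with 6 shared bp each, chr14:21526402-21527389 with 7 bp, and chr6:125567890-125568131 and chr7:132944917-132944981 with 9 bp each. A peak of any other list lay within 1 kb of 193 members (9.88%, 8.59 to 11.3%). For 148 members (7.58%) a Sin3B peak of myoblasts was that close, and for 65 (3.33%) a Sin3A peak of either stage. Within 50 kb the share with a peak of another list was 38.5%.

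Some members lay close to another Sin3B myotube peak. The next Sin3B myotube peak of another region lay within 10 kb of 415 of 1953 members (21.2%, 19.5 to 23.1%), against 263 of 1776 other myotube Sin3B regions (14.8%, 13.2 to 16.5%), a difference of 6.44 points (3.98 to 8.89; Fisher's exact test, two-sided, p = 3.27e-07). The difference was larger at short range and did not grow beyond it: 15.6% of members had such a neighbour within 1 kb, against 8.0% of the others, or 7.57 points more (Fisher's exact test, p = 7.28e-13). Of the 304 members with a neighbour that close, 206 had another member as the nearest, and the median gap was 240.5 bp (quartiles 145 and 457.75 bp). At a distance of 50 kb the order turned, with 44.3% of members against 45.8% of the others (Fisher's exact test, p = 0.374). The median gap was 64656 bp for members and 60111.5 bp for the others.

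A peak of another list can bridge neighbouring myotube peaks into 1 region and so remove the gap between them. Among the 1776 other regions, 39 held 2 or more myotube Sin3B peaks. The part of joining in the difference in close neighbours was not tested. With single myotube Sin3B peaks as units, the shares within 10 kb were 21.2% for members and 18.4% for the others (Fisher's exact test, p = 0.0337), and with all peaks within 1 kb joined they were 6.53% and 7.65% (p = 0.211). Without the members that had a peak of another list within 1 kb, the share was 17.3% for members against 14.8% for the others, or 2.46 points more (Fisher's exact test, p = 0.0487). In the set of 273 regions with both Sin3 proteins in myotubes alone, 38 (13.9%) had a close neighbour.

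Chained over gaps of up to 10 kb, 1684 members stood alone and 269 fell into 129 runs, of which 120 held 2 members, 7 held 3 and 2 held 4. The runs of 4 were at chr3:88420660-88428235, over 7576 bp, and at chr17:34161491-34169418, over 7928 bp. The tightest run of 3 spanned 1338 bp at chr2:27281216-27282553. Others of 3 were at chr3:58494462-58495943, chr6:86475225-86476881 and chr16:92823457-92826159. None of these lies in a matched stretch, so no gene is named.

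**Figure D2:**
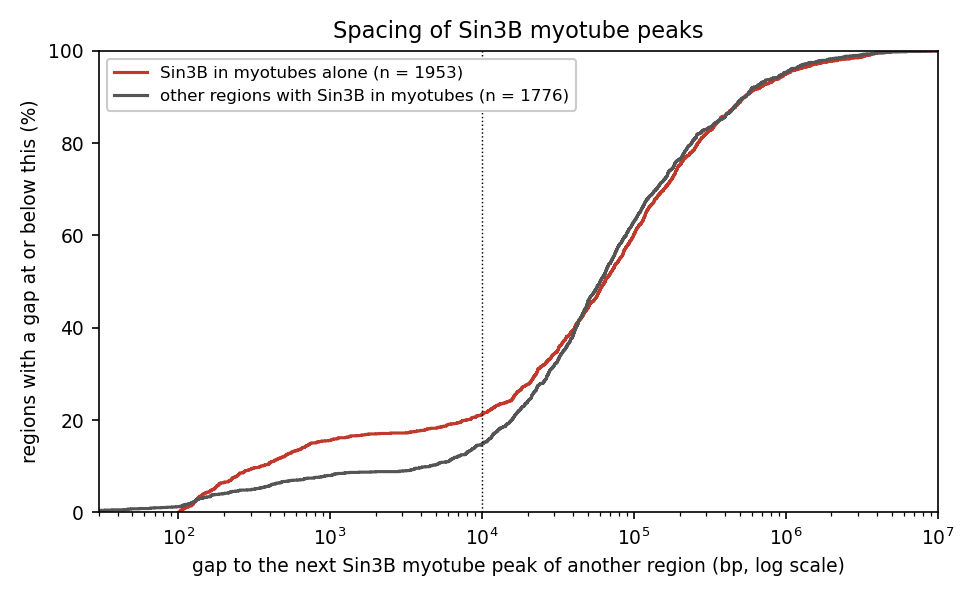
Cumulative share of regions (y axis, percent) by the gap to the next Sin3B myotube peak of another region (x axis, bp, log scale) for members (n = 1953) and for other regions with Sin3B in myotubes (n = 1776); the dotted line marks 10 kb. The member curve is higher over most gaps below 10 kb, at 15.6% against 8.0% by 1 kb, and the curves meet at longer gaps.

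Members lay on all 20 chromosomes that were tested. Set against the other myotube Sin3B regions, which come from the same list, 1 chromosome was higher and 1 lower at an adjusted p under 0.05 (5% of 20 in each direction). Chromosome 7 held 104 members (5.33%) against 60 other regions (3.38%, Fisher's exact test, two-sided, p = 0.00393, adjusted p = 0.0479), and chromosome 15 held 92 members (4.71%) against 122 (6.87%, p = 0.00479, adjusted p = 0.0479). Among regions with a Sin3B myotube peak, the share of members ran between 43.0% on chromosome 15 and 70.4% of 27 regions on chromosome X. For chromosome X, 19 members (0.973%) stood against 8 other regions (0.450%, Fisher's exact test, adjusted p = 0.317). The differences were 1.95 points on chromosome 7 and -2.16 on chromosome 15. By the same exact test, both calls held without the members that had a peak of another list within 1 kb (2.36 and -2.61 points, in that order, adjusted p = 0.00892 for both). They were lost, with differences of the same sign, when joining needed an overlap of 50% of the shorter peak (1.49 and -2.32 points, exact test, adjusted p = 0.304 and 0.0652) and with the wider peaks alone (1.98 and -2.81 points, exact test, adjusted p = 0.295 for both). Against regions with Sin3B at both stages they were lost at 1.83 and -0.69 points (exact test, adjusted p = 0.369 and 0.766).

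**Figure D3:**
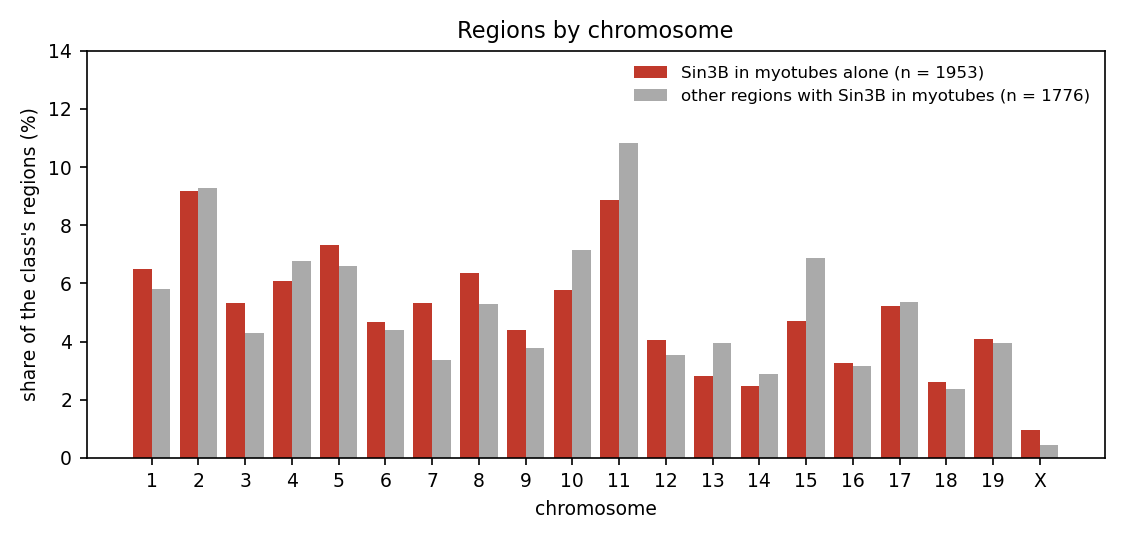
Share of regions (y axis, percent of the class) on each chromosome (x axis) for members (left bars, n = 1953) and other regions with Sin3B in myotubes (right bars, n = 1776). Chromosome 7 holds 5.33% of members against 3.38% of the others, and chromosome 15 holds 4.71% against 6.87%.

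On the matched stretches, which were themselves drawn by nearness to starts, members lay mostly at gene starts, like the other Sin3B regions. Of 103 members in the matched stretches, 87 (84.5%, 76.0 to 90.9%) had the middle of the joined region within 1 kb of a start, against 75 of 87 other myotube Sin3B regions (86.2%, 77.1 to 92.7%). The difference was -1.74 points (-11.8 to 8.75; two-sided Fisher's exact test, adjusted p = 1 over 3 comparisons). Regions with Sin3B at both stages had 43 of 50 at starts (86.0%), a difference of -1.53 points (-12.4 to 11.9, Fisher's exact test, adjusted p = 1). At starts were 28 of 40 regions with Sin3B in myoblasts alone (70.0%, 53.5 to 83.4%), and members stood 14.5 points above them (-0.0169 to 30.9, Fisher's exact test, adjusted p = 0.185). With either end of a gene counted as a start, from a second gene table, 96 of 103 members and 82 of 87 other regions were within 1 kb.

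Inside that window the peaks of members sat mostly on the gene side. The middle of the Sin3B peak lay a median of 235.5 bp downstream of the start (quartiles 41.75 and 408 bp), with 68 members downstream and 19 upstream. For the 75 other myotube Sin3B regions the median was 174 bp downstream, with 56 downstream and 19 upstream. The middle was within 250 bp of the start at 39 of 87 members (44.8%) and at 41 of 75 other regions (54.7%, Fisher's exact test, adjusted p = 0.405). This measure was added after the values were seen, and the call depended on the distance: within 150 bp the counts were 18 of 87 members (20.7%) and 32 of 75 other regions (42.7%, Fisher's exact test, adjusted p = 0.00570). The nearest start was that of a protein-coding gene for 79 of the 87. Starts on both strands lay within 1 kb of 18 members (20.7%) and of 20 other regions (26.7%, Fisher's exact test, p = 0.458).

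**Figure D4:**
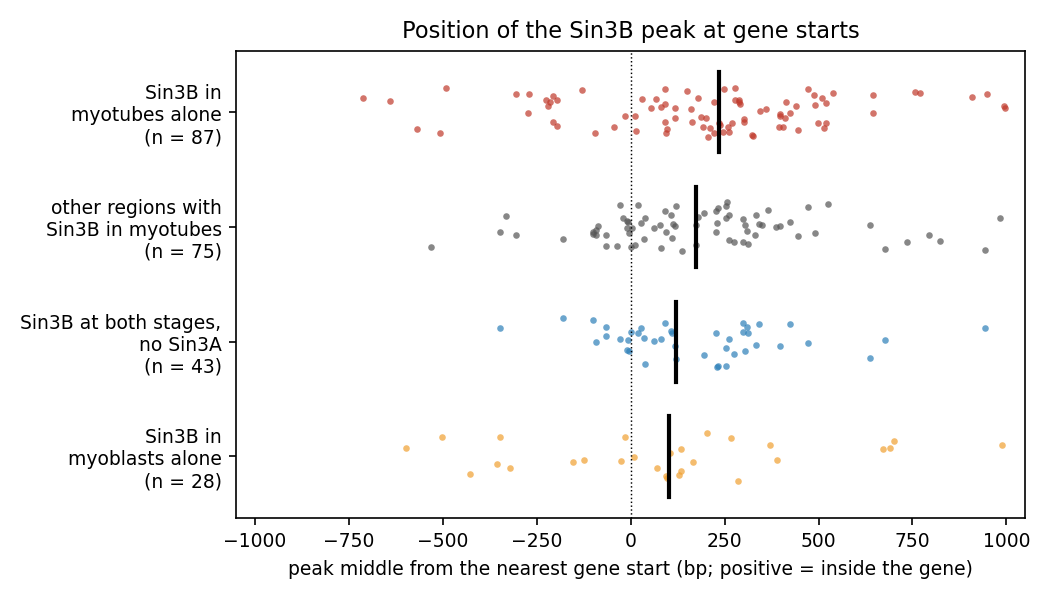
Position of the Sin3B peak middle relative to the nearest gene start (x axis, bp, positive inside the gene) for regions within 1 kb of a start in the matched stretches, 1 point per region, by class; black bars are medians and vertical scatter has no meaning. The median is 235.5 bp for the 87 members and 174 bp for the 75 other regions with Sin3B in myotubes.

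Genes with a member at the start had many roles. Of 1216 genes with a start in the stretches, 106 (8.72%) had a member within 1 kb, beside 8.06% with another myotube Sin3B region, and of 792 protein-coding genes 95 (12%). From 19 lists of muscle, metabolic, growth and chromatin genes, 26 genes had a start there, and 6 of the 26 (23.1%) had a member while 12 had another myotube Sin3B region. So few genes carry no statement about a list. None of the genes of the sarcomere, calcium handling, myogenic regulator, muscle membrane, tricarboxylic acid cycle or core histone lists had a start in the stretches, so nothing can be read about them here.

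Among chromatin genes, Ing1 had 2 members. Its product reads a methylated histone tail and is a stable subunit of Sin3 deacetylase complexes, and it was the single gene of the Sin3 complex list with a start in the stretches. A member 118 bp wide lay at chr8:11555434-11555551, its middle 269.5 bp upstream of the nearest Ing1 start. The other, 275 bp wide at chr8:11555942-11556216, had its middle 14 bp downstream of a different Ing1 start. No peak of another list came within 50 kb of either (57566 and 58074 bp). Hira, the core of the histone chaperone that places the variant histone independently of replication, had a member of 333 bp at chr16:18876264-18876596, and its partner Ubn1 had the wide member described with its promoter. The middle of the Hira member lay 320 bp upstream of the Hira start and nearer to the Mrpl40 start, 207 bp downstream of it. Hira, the genes named in the rest of this paragraph and those in the paragraph on signalling and RNA were picked for their known roles after their values were seen. Dpf2, a subunit of the BAF remodelling complex, had a member of 536 bp, Men1, which encodes the MLL partner menin, 433 bp, and Asxl2, a cofactor of a histone H2A deubiquitinase, 301 bp. The Asxl2 member lay 70 bp from a region with Sin3B in myoblasts alone, which was also within 1 kb of an Asxl2 start. Usp16, itself an H2A deubiquitinase, had a member of 485 bp, and Usp7, another deubiquitinase, one of 612 bp.

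Of genes for mitochondria and protein synthesis, Mrpl40 and Mrps6, of the large and the small mitochondrial ribosomal subunit, had members, 2 of 5 on the mitochondrial translation list. The Mrpl40 member was the one of 333 bp that also lay at Hira, on the opposite strand, and the Mrps6 member was 550 bp wide at chr16:92058599-92059148, 537.5 bp downstream of the start. Atp5j, a subunit of the mitochondrial ATP synthase, was 1 of 5 on the respiratory chain list. The Atp5j member of 891 bp at chr16:84835484-84836374 covered the Atp5j start whose promoter is shown and lay inside Gabpa, which encodes the DNA-binding subunit of an ETS-family activator. It was 108 bp from a peak of another list. Rpl35a, of the large cytoplasmic ribosomal subunit, was 1 of 3 on its list, with a member of 353 bp at chr16:33056148-33056500. Cdc45, a subunit of the replicative helicase, was 1 of 4 DNA replication genes, with a member of 776 bp at chr16:18811349-18812124 that also lay near Ufd1, a cofactor of the VCP segregase. The Cdc45 member was 220 bp from a peak of another list. Atp5j, Gabpa, Cdc45 and Ufd1 also had another myotube Sin3B region within 1 kb, which in each case held a myoblast Sin3B peak too.

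The counts in the remaining lists were 0 of 2 for glycolysis, 0 of 2 for autophagy and lysosome, 0 of 1 each for cell cycle, the proteasome, splicing and markers of adipocytes, bone and fibroblasts. Both autophagy and lysosome genes, Atg3 and Lamp1, had another myotube Sin3B region instead.

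Members also lay at genes of signalling and RNA handling. Gsk3b, a kinase of insulin and Wnt signalling, had a member of 774 bp, Cblb, a ubiquitin ligase that restrains receptor signalling, 593 bp, and Crkl, an adaptor, 378 bp. The Gsk3b member had its middle 899.5 bp downstream of the Gsk3b start and nearer, at 640.5 bp, to the start of the long noncoding RNA BC031361. Vgll3, a cofactor of the TEAD factors that bind M-CAT elements of muscle genes, had a member of 590 bp at chr16:65815666-65816255, 771.5 bp downstream of its start and over a megabase from any peak of another list. Eif4g1, the scaffold of cap-dependent translation initiation, had a member of 458 bp, and Upf3a, of nonsense-mediated decay, one of 857 bp. Tra2b and Sf1, splicing factors, had members of 372 and 471 bp. The Sf1 member lay 511 bp from the Sf1 start and 491 bp from that of the long noncoding RNA Gm14966. Son, a protein of nuclear speckles needed for splicing, was the other gene with 2 members, of 486 bp at chr16:91646944-91647429 and of 561 bp at chr16:91648043-91648603, upstream and downstream of its start. The upstream one was shared with Gart, an enzyme of purine synthesis.

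The 16 members of the stretches without a start of the promoter table within 1 kb were narrower, with a median of 378.5 bp (quartiles 296.5 and 435) against 536 bp (420.5 and 648.5) for the 87 at starts, a description without a test. All 16 lay inside a gene of the gene table, 14 of them inside a protein-coding one. Of the 16, 9 were within 1 kb of either end of a gene in that table, and an end can be where the gene starts. For the members inside Klhl24, Rad9a and Gatad1, the nearest start of the promoter table belonged to another gene. Whether starts missing from the promoter table lie at these members was not tested. Bcl6, which encodes a transcriptional repressor known for recruiting corepressor complexes, held 2 of them, at chr16:23986722-23986989 (268 bp) and chr16:23987499-23987829 (331 bp), with middles 1996.5 and 1188 bp downstream of its start. Others lay inside genes that included Klhl24, Pak2, Pdia5, Cox17, Tiam1, Rps6kb2, Rad9a, Ltbp3, Gatad1 and Ankrd10, and the pair in Malat1 is described with the widest members. The member in Pdia5 was 12 bp wide.

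Promoters of the members were rich in CpG. The 87 promoters nearest to members had a median GC content of 64% (quartiles 58.5 and 68%) and a median of 25 CpG per 300 bases, against 61.2% and 22.5 for 74 promoters of other myotube Sin3B regions. All 32851 promoters of the table had medians of 52.7% and 7. The ratio of observed to expected CpG was lower for members than for the other regions, with medians of 0.819 and 0.874, against 0.384 for all promoters. A promoter shared by both classes (1 case) was counted with the members.

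The 14 motifs were searched on both strands. They were the GC box spelled GGGCGG, the CCAAT box with those letters, the ETS word CCGGAAG, the muscle form of the E-box, CAGCTG, its MYC form, CACGTG, the YY1 word AAGATGGC, the CRE word TGACGTCA, the E2F words TTTCGCGC and TTTGGCGC, the AP-1 word TGANTCA, M-CAT as GGAATG and the TATA box as TATAAA. The NRF1 word was GCGC, any base and then TGCGC, and the MEF2 site and the CArG box are given by name. CCAAT can lie within a CArG word and TATAAA within a MEF2 word. No motif passed an adjusted p of 0.05 between members and other myotube Sin3B regions (0% of 14; Fisher's exact test, two-sided), and 2 had an unadjusted p under 0.05. The CCAAT box, read by NF-Y, was in 48 of 87 member promoters (55.2%), against 24 of 74 (32.4%) at other regions and 37.4% of all promoters (interval of the difference 7.35 to 36.6 points, Fisher's exact test, p = 0.00436, adjusted p = 0.0610). The GC box, read by SP and KLF factors, was in 63 member promoters (72.4%), against 40 (54.1%) and 35.7% of all (3.46 to 32.4 points, Fisher's exact test, p = 0.0209, adjusted p = 0.146).

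Motifs of muscle factors were each in at most 16.1% of the promoters of either class. The muscle E-box was in 16.1% of member promoters, against 9.46% at other regions and 16.3% of all promoters. M-CAT was in 16.1%, against 12.2% and 14.7%. The MEF2 site and the CArG box were each in 2 member promoters (2.30%), against 0 of 74, with 3.19% and 1.63% of all promoters. The ETS word was in 25.3% of member promoters, against 39.2% at other regions (Fisher's exact test, adjusted p = 0.298) and 8.86% of all. NRF1 words were in 12.6%, against 17.6% and 4.60% of all, YY1 words in 8.05%, against 9.46% and 2.75%, and MYC-form E-boxes in 12.6%, against 13.5% and 7.15%. CRE was in 4.60%, against 8.11% and 1.79%, E2F in 2.30%, against 2.70% and 0.813%, AP-1 in 2.30%, against 5.41% and 7.81%, and the TATA box in 5.75%, against 1.35% and 13.6%. A match is a word in the window and not a bound site, and the part of base composition in these shares was not tested.

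**Figure D5:**
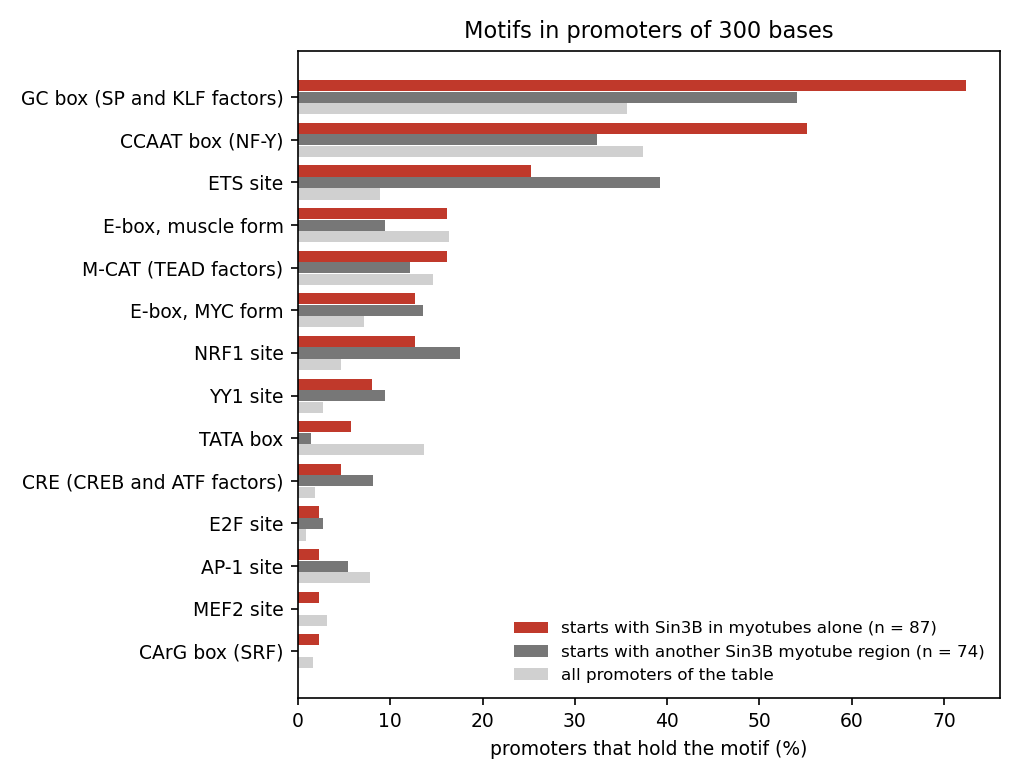
Share of 300-base promoters that hold each motif on either strand (x axis, percent) for starts with a member (n = 87), starts with another Sin3B myotube region (n = 74) and all 32851 promoters of the table. The CCAAT box is in 55.2% of member promoters against 32.4% and 37.4%, and the GC box in 72.4% against 54.1% and 35.7%.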

How the data were processed

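Peak lists were deposited by the authors as chromosome, start and end, and the values have no unit beyond position. No source used here names the caller, threshold, build or use of inputs. Per the labels' protocols, libraries had 18 PCR cycles and were sized at about 350 bp with adapters. Sin3B precipitations used antibody lot H0904 of the catalogue number that both antibodies carry. The 11 files held 4 distinct lists with 7606 peaks in all, and each was counted once. Starts were raised by 1. A region's width is that of its widest myotube Sin3B peak, or of its widest myoblast Sin3B peak where it had no myotube one. Gene starts and promoters (RefSeq, GRCm38.p6, no promoter of chromosome 18) were used on stretches running from a chromosome's beginning to the point where regions within 1 kb of a start most outnumbered the rest, with an excess of at least 5. The promoter table held 582 of the 791 genes of the lists. Two-sided Fisher's exact tests compared shares, with Benjamini-Hochberg adjustment within each measure, and carry Clopper-Pearson intervals; differences carry Newcombe intervals. Motifs were compared in promoters by gene, in place of windows around region middles. Members named by rule were the 20 widest, list genes with a member, genes with 2 members, and the 5 regions on each side of the rule's edge; members with 2 peaks were also to be named, and none exist. Members, lists and tests were chosen with earlier results of these data known. Region joining, the chromosome test and the drawing of stretches were checked on simulated data, and motif matching on short made-up sequences. The other tests were not checked in this way. Scripts ran under Python 3.11.15 with scipy 1.17.1, pandas 2.3.3, numpy 2.4.6 and, for figures, matplotlib 3.10.9.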

Additional observations from a re-analysis of the deposited data

How the results depend on the processing

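No paired analysis was possible because files within a group did not differ in a single byte, and for the same reason no replicate could be left out. Values here are differences in percentage points, members minus the class named, and the cause of each change was not tested. The number of members was 768 with only the wider myotube Sin3B peaks (545 bp or more), which drops peaks by construction, and between 1654 and 2324 in the other settings. The 3 width comparisons kept their direction and call in all 7 settings that gave a value; with the wider peaks every member is wide and there is none. The excess of close neighbours turned to -1.13 with peaks within 1 kb joined and to -1.49 at 50 kb, and was 2.46 without members within 1 kb of another list. At gene starts, the difference from other myotube Sin3B regions turned to 9.52 with the wider peaks, 0.871 when members had to lack only a myoblast Sin3B peak, and 1.79 at 5 kb. From regions with Sin3B at both stages it turned to 5.24 with the wider peaks, 0.291 at 5 kb and 1.26 on chromosome 16 alone, and from Sin3B in myoblasts alone it passed the threshold with the wider peaks (21.9, adjusted p = 0.0116 by Fisher's exact test). In the setting with the wider peaks, both-stage regions whose myotube peak was dropped counted as Sin3B in myoblasts alone. That class therefore held 60 regions in the stretches, against 40 in the main setting, and is not the same class. The difference in peak middles near the start turned to 5 against other regions with the wider peaks and to 9.15 against both-stage regions without chromosome 16. It passed the threshold at 150 bp (-22.0 against other regions, -25.8 against both-stage regions), at 350 bp (-22.8 against both-stage regions) and with the middle of the joined region (-24.5 and -34.2, in the same order). Chromosomes called fell to 0 with an overlap of 50%, with the wider peaks and against both-stage regions, and stayed at 2 without members within 1 kb of another list. All settings for peak middles, the chromosome 16 and gene-end settings for starts, and all settings for chromosomes but the both-stage one were chosen after seeing the data, as were neighbours within 1 kb and single peaks as units. The 500 bp motif windows were not run because promoters of 300 bases were used. Unknown depth and 1 list per group limit every comparison to these lists, and gene statements to 103 of 1953 members.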
